A study of Glycine max with 6 samples.

Results

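Transcripts of LOXB1, VLXC and AOS2, genes of the oxylipin pathway of soybean (Glycine max), were followed through 11 cDNA clones in roots of the near-isogenic lines IsoClark and Clark. The clones were those whose row of the deposited ratio table carried 1 gene symbol, and that symbol was LOXB1, VLXC or AOS2. LOXB1 had 8 clones, VLXC had 2 and AOS2 had 1, out of 1158 rows with 1 symbol and 18361 clones on the array. Each clone was printed as 1 spot per array. A further row carried LOXB1 together with another symbol and was not used.

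IsoClark is Fe-inefficient and Clark is Fe-efficient. Per the study's methods, IsoClark was derived by crossing Clark with the Fe-inefficient line T203 and backcrossing to Clark with selection for inefficiency, so each genotype is represented by 1 inbred line. All plants of both lines grew in Fe sufficient, DTPA-buffered hydroponics with bicarbonate, and no Fe limited plants belong to these data. Root RNA of 3 biological replicates, each pooled from several plants of 1 hydroponic unit, was compared directly on 6 two-colour cDNA arrays, with the dyes exchanged between the arrays of a replicate. Because whole roots were used, fewer cells of a type and less RNA per cell cannot be told apart.

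Lipoxygenases are non-heme iron dioxygenases that add oxygen to polyunsaturated fatty acids such as linoleic and linolenic acid. Allene oxide synthase, a cytochrome P450 of the CYP74 family, converts one class of the resulting hydroperoxides to allene oxides, the first step committed to jasmonate. In soybean, jasmonate and wounding are known to raise vegetative lipoxygenases and vegetative storage proteins, which serve as nitrogen stores in leaves. LOXB1 carries the synonyms LOX4, L-4 and VSP94 in RefSeq, the last being the name of a lipoxygenase that behaves as a vegetative storage protein. VLXC is another lipoxygenase of the vegetative class, and AOS2 has the synonym CYP74A3. Cloned cDNAs of related lipoxygenases can bind each other's transcripts, and how far this happened here was not tested.

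For LOXB1, VLXC and AOS2, no difference between IsoClark and Clark roots was called. Of the 11 clones, 9 could be tested, and 0 of these passed an adjusted p of 0.05 in limma, where 0% of the 13430 clones tested did so. In the mean over the 3 replicates, the IsoClark over Clark ratio of the tested clones lay between -0.32 (LOXB1 clone Gm-r1083-1469) and 0.29 (VLXC clone Gm-r1070-948) on the log2 scale. For 6 of the 9 the mean was below 0, against 49.3% of all clones tested. None of the 9 had a mean at least 2-fold apart, against 0.0298% of all clones tested. The limma 95% intervals of all 9 stayed within 2-fold, with bounds from -0.77 to 0.58.

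Hybridization signal was strong for most of these clones in both lines. A channel value counted as above background when the signal mean exceeded the local background median by 2 background SD. This held for 131 of the 132 member values (11 clones, 6 arrays, 2 channels), or 99.2%, against 87.4% of all cDNA values. The single exception was LOXB1 clone Gm-r1021-2652 in IsoClark on the IsoClark-Cy3 array of replicate 3. The image program flagged 13 of the 66 member spots as poor (19.7%, against 29.3% of all cDNA spots), and spots flagged as poor were left out of all ratios.

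Brightness of a spot depends on the DNA printed as well as on the transcript, so levels are described for each clone apart and are not ranked as transcript levels between clones. Levels are given as the percentile of a spot among the cDNA spots of its array and channel. LOXB1 clone Gm-r1070-5245 had percentiles of 57.8 to 99.5 in IsoClark (median 95.1) and of 81.2 to 98.6 in Clark (median 95.7). Gm-r1021-639 had 70.9 to 99.4 in IsoClark (median 94.96) and 74.6 to 98.9 in Clark (median 97.3). For both, the ranges of the lines overlapped, but both lines were on the same arrays, so this overlap does not compare the lines. Each clone reached saturation of its signal median in 1 IsoClark channel, that of the IsoClark-Cy5 array of replicate 1.

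Gm-r1083-1469 and Gm-r1083-3425, from the second root unigene set, are LOXB1 clones too. The first had percentiles of 29.6 to 97.6 in IsoClark (median 84.7) and 41.0 to 97.9 in Clark (median 89.4). Gm-r1083-3425 had 53.1 to 94.8 in IsoClark (median 77.0) and 66.0 to 96.4 in Clark (median 82.5). In both clones the lowest percentile of each line came from the IsoClark-Cy5 array of replicate 2. Gm-r1070-1213 had medians of 76.9 in IsoClark and 76.2 in Clark, and Gm-r1021-1460 of 75.2 in IsoClark and 65.2 in Clark. Gm-r1021-3700 had 69.4 in IsoClark and 73.9 in Clark, and Gm-r1021-2652 had 49.9 in IsoClark and 41.3 in Clark. The medians spread more widely among the LOXB1 clones than between the lines within any of them.

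VLXC clone Gm-r1083-3357 had percentiles of 44.8 to 82.4 in IsoClark (median 64.3) and 36.9 to 80.8 in Clark (median 59.4). Gm-r1070-948 had 22.1 to 58.0 in IsoClark (median 42.5) and 21.8 to 51.2 in Clark (median 36.8), and the image program marked its spot as empty on the IsoClark-Cy5 array of replicate 2. That spot was kept in the ratios. The AOS2 clone Gm-r1083-304 had 34.9 to 88.1 in IsoClark (median 75.1) and 43.6 to 87.3 in Clark (median 81.2). All 3 clones lay above background in both channels of all 6 arrays.

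**Figure D1:**
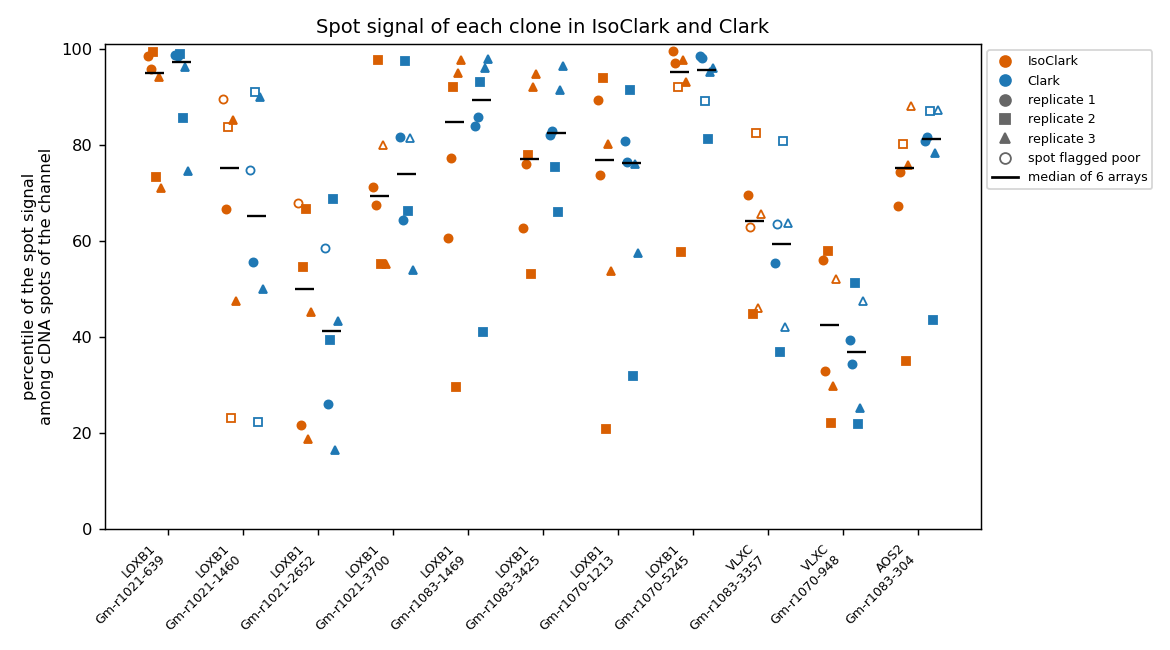
Percentile of the spot signal among the cDNA spots of the channel (vertical axis, 0 to 100) for each of the 11 clones, IsoClark left of Clark, with 1 point per array, open points for spots flagged as poor and a bar at the median of the 6 arrays. The ranges of the 2 lines overlap in every clone, but both lines were on the same arrays, so the ranges include array differences and their overlap does not compare the lines. The clones differ among themselves from a median of 36.8 (VLXC clone Gm-r1070-948 in Clark) to one of 97.3 (LOXB1 clone Gm-r1021-639 in Clark).

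Arrays differed in quality. Between 18.9% and 44.2% of the cDNA spots per array were flagged as poor, and between 77.0% and 98.7% lay above background per channel. The IsoClark-Cy5 array of replicate 2 stood apart, with a mean correlation of spot intensity with the other arrays of 0.335, against 0.594 to 0.706 for those. Its label field and the dye named in its labelling protocol are opposite, and the label field was followed. Arrays of replicate 1 were quantified on a different day from those of replicates 2 and 3, and both lines were on every array. Root marker genes (5 clones of 2 genes) had a median percentile of 92.2 in IsoClark and 92.5 in Clark, and all 5 clones lay above background on at least 4 arrays. Seed marker clones (31 of 11 genes) had medians of 47.3 in IsoClark and 47.2 in Clark. Green tissue clones (11 of 3 genes) had 62.6 in IsoClark and 61.9 in Clark. In either list 0 clones were at background on all arrays. All 11 green tissue clones also lay above background on at least 4 arrays in both lines. Of the 31 seed clones, 26 did so in IsoClark and 28 in Clark.

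Line ratios are given below as IsoClark over Clark on the log2 scale, where 0 is equality, by array and then as the mean ± SD over replicates. Of the 8 LOXB1 clones, 4 had a usable spot on all 6 arrays. For Gm-r1083-1469 the ratios with IsoClark in Cy3 were -0.87, -0.13 and -0.12 in replicates 1, 2 and 3, and those with IsoClark in Cy5 were -0.36, -0.42 and -0.03. All 6 lay below 0, which was so for 2.33% of the 2618 clones usable on all 6 arrays. The replicate values were -0.62, -0.27 and -0.07, with a mean of -0.32 ± 0.27 (n = 3, interval -0.67 to 0.03). In limma p was 0.0659 before adjustment and 0.796 after it. The replicates spanned a wider range than the size of the mean, and without replicate 1 the ratio was -0.17.

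Gm-r1083-3425 had -0.71, 0.13 and 0.06 with IsoClark in Cy3 and -0.30, -0.38 and -0.16 with IsoClark in Cy5. Its replicate values of -0.51, -0.13 and -0.05 averaged -0.23 ± 0.25 (n = 3, limma adjusted p = 0.796), and without replicate 1 the ratio was -0.09. As in Gm-r1083-1469, the lowest ratio came from the IsoClark-Cy3 array of replicate 1. Over the 6 arrays these clones had a Pearson's r of 0.903 with each other. It was the highest among pairs of LOXB1 clones usable on all 6 arrays. The other pairs ranged from -0.24 to 0.79.

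Gm-r1021-639 had -0.07, 0.20 and -0.24 with IsoClark in Cy3 and -0.18, -0.54 and -0.16 with IsoClark in Cy5, so 5 of 6 arrays lay below 0. The replicate values agreed closely at -0.12, -0.17 and -0.20, and the mean was -0.16 ± 0.04 (n = 3, interval -0.45 to 0.13, limma adjusted p = 0.801). Its arrays spread far more widely than its replicate values, because the pair of replicate 2 held 0.20 and -0.54. Without the IsoClark-Cy5 array of replicate 2 the mean was -0.04. The -0.18 came from the array on which the IsoClark signal median of this clone was saturated, and the effect on the ratio was not tested.

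Gm-r1070-1213 changed sign with the dye. With IsoClark in Cy3 it had 0.48, 0.35 and 0.23, and with IsoClark in Cy5 it had -0.10, -0.55 and -0.16. Signs that were opposite in all arrays of each dye orientation occurred in 7.68% of the 2618 clones usable on all 6 arrays. The dye cancelled in the pair means of 0.19, -0.10 and 0.03, which left a line ratio of 0.04 ± 0.14 (n = 3, limma adjusted p = 0.959). The Cy5 over Cy3 ratio of the same spots was -0.31 ± 0.13 (n = 3, limma, unadjusted p = 0.0156, adjusted p = 0.310 over 2618 clones). No clone passed the adjusted threshold for the dye in limma, whereas 12.3% had an unadjusted p under 0.05.

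The remaining LOXB1 clones lacked 1 or more arrays, so their dye balance was incomplete. Gm-r1070-5245 had 0.24 and 0.30 with IsoClark in Cy3 in replicates 1 and 3, and -0.08, -0.91 and -0.28 with IsoClark in Cy5. Its mean of -0.27 ± 0.55 (n = 3, limma adjusted p = 0.802) rested on replicate 2, where the array with IsoClark in Cy5 was the only one usable. Without replicate 2 the mean was 0.05. The -0.08 came from the array on which the IsoClark signal median of this clone was saturated, and the effect on the ratio was not tested.

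Gm-r1021-2652 had 0.71 and 0.13 with IsoClark in Cy3 in replicates 2 and 3, and -0.24, -0.01 and 0.10 with IsoClark in Cy5, for a mean of 0.07 ± 0.30 (n = 3, limma adjusted p = 0.931). Without replicate 2 its mean was -0.06. Gm-r1021-3700 had -0.37 and 0.05 with IsoClark in Cy3 in replicates 1 and 2, and 0.14, -0.33 and 0.08 with IsoClark in Cy5, for -0.06 ± 0.12 (n = 3, limma adjusted p = 0.934). Neither clone kept 1 sign across its arrays. Gm-r1021-1460 was usable on only 3 arrays, with 0.50, -0.33 and -0.09, and was not tested because replicate 2 gave no value.

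The mean over the 7 tested LOXB1 clones was -0.19, -0.20 and -0.01 in replicates 1, 2 and 3, or -0.13 ± 0.10 (n = 3). An exact two-sided sign-flip permutation test of these values gave p = 0.25, the smallest p that 3 replicates allow. The mean was below 0 in 5 of the 7 clones, and 3 were below 0 in all 3 replicates, which held for 13.3% of all clones tested. None was above 0 in all 3, against 15.8% of all clones. The clone means had an SD of 0.155 between clones, and the median SD between the replicates of a clone was 0.245. The former is a spread of means of 3 replicates and the latter one of single replicate values, so their sizes cannot be compared directly. The clones share a target and are not replicates.

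VLXC was the only member gene with a mean above 0. Gm-r1070-948 had 0.77, 0.31 and 0.31 with IsoClark in Cy3, and -0.08 and 0.14 with IsoClark in Cy5 in replicates 1 and 2. Its replicate values of 0.35, 0.22 and 0.31 averaged 0.29 ± 0.06 (n = 3), a 1.22-fold ratio, with a limma p of 0.0493 before adjustment and 0.796 after it. It was the single member with an unadjusted p under 0.05, which 5.53% of all clones had. The ratio averaged 0.46 over 3 arrays with IsoClark in Cy3 and 0.03 over 2 arrays with IsoClark in Cy5, of which 1 spot was marked empty, and this difference was not tested. The replicate 3 value rested on 1 array with IsoClark in Cy3, so its dye does not cancel. The deposited column of that array runs against its label, and with the direction of the array turned the mean was 0.09.

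Gm-r1083-3357, the other VLXC clone, was usable on 2 arrays only, both with IsoClark in Cy3, where it had 0.61 in replicate 1 and 0.42 in replicate 2. Its mean of 0.51 ± 0.14 (n = 2) was not tested. With poor spots included, all 6 arrays gave a mean of 0.22. The dye and the line cannot be told apart in Gm-r1083-3357.

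AOS2 clone Gm-r1083-304 had -0.48 and -0.14 with IsoClark in Cy3 in replicates 1 and 3, and -0.31 and -0.24 with IsoClark in Cy5 in replicates 1 and 2. All 4 usable arrays lay below 0, in both dye orientations, and the share of all clones like this was not computed. All 3 replicate values lay below 0, which held for 13.3% of all clones tested. The replicate values of -0.40, -0.24 and -0.14 averaged -0.26 ± 0.13 (n = 3, interval -0.56 to 0.04), a 0.835-fold ratio with a limma p of 0.0810 before adjustment and 0.796 after it. Replicates 2 and 3, which were quantified on the same day, rested on 1 array each and averaged -0.19. Over its 4 arrays AOS2 had an r of 0.968 with LOXB1 clone Gm-r1083-1469 and of 0.942 with Gm-r1083-3425. With LOXB1 clones Gm-r1021-639 and Gm-r1070-1213 the r was -0.55 and -0.43. How often other clones reach such r over 4 arrays was not computed.

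**Figure D2:**
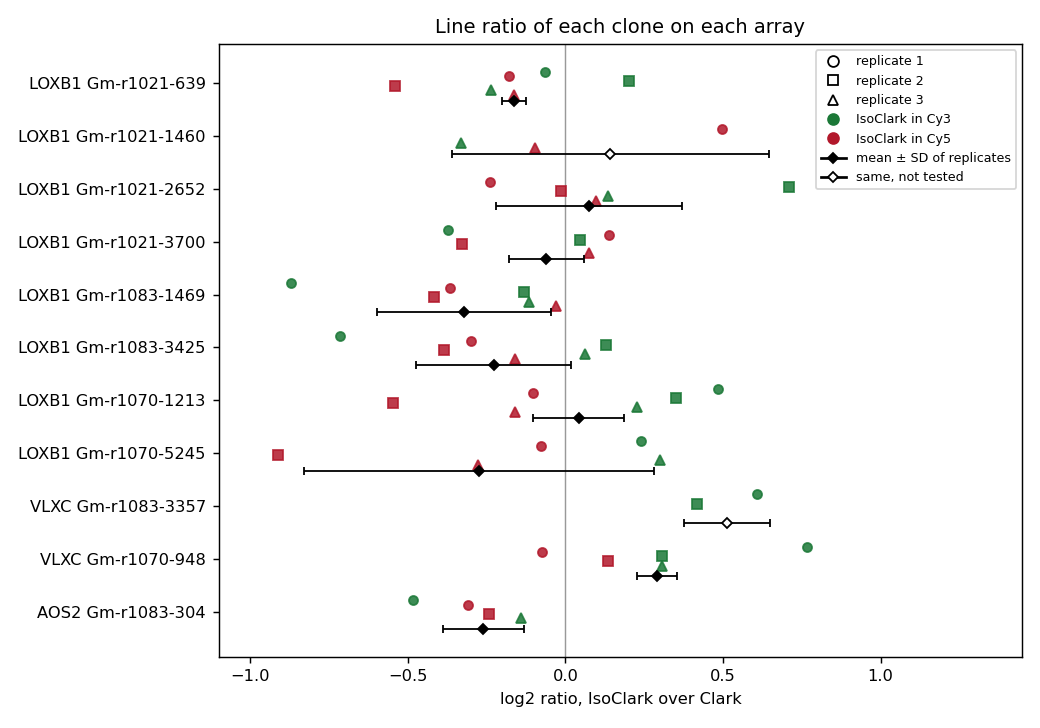
Line ratio (IsoClark over Clark, log2, horizontal axis) of each clone on each usable array, with colour for the dye of IsoClark, shape for the replicate and a diamond for the mean ± SD over replicates, open where no test was made. All 6 points of LOXB1 clone Gm-r1083-1469 and all 4 of the AOS2 clone lie below 0, while those of LOXB1 clones Gm-r1070-1213 and Gm-r1070-5245 lie above 0 with IsoClark in Cy3 and below 0 with IsoClark in Cy5.

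Position on the slide moved with these ratios. The array was printed in 48 blocks, each a subgrid of spots, and the median ratio of all cDNA clones in a block ranged from -0.63 to 0.37 between blocks on the IsoClark-Cy3 array of replicate 1, from -0.23 to 0.18 on its dye swap, from -0.27 to 0.48 and from -0.40 to 0.48 on the replicate 2 arrays, and from -0.20 to 0.25 and from -0.19 to 0.23 on the replicate 3 arrays. The r of a clone with its block ranged from 0.05 to 0.960 over the 9 tested clones, and 6 of them had at least 0.8. The block of LOXB1 clone Gm-r1083-1469 (386 cDNA spots) had medians of -0.63, -0.07 and -0.002 with IsoClark in Cy3 and -0.09, -0.26 and -0.05 with IsoClark in Cy5, and the clone had an r of 0.952 with them over 6 arrays. For Gm-r1083-3425, in the neighbouring block, r was 0.939.

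LOXB1 clones Gm-r1070-1213 and Gm-r1070-5245 lay in 1 block, whose own medians changed sign with the dye. They were 0.26, 0.05 and 0.13 with IsoClark in Cy3 and -0.05, -0.36 and -0.19 with IsoClark in Cy5. The r of clone with block was 0.960 over 6 arrays for Gm-r1070-1213 and 0.943 over 5 arrays for Gm-r1070-5245. Over 2791 clones usable on all 6 arrays and printed once, the median r with the block was 0.595, and 10.8% reached 0.9, as did 3 of the 4 member clones usable on all 6. The fourth, Gm-r1021-639, had an r of 0.424 and block medians between -0.10 and 0.09.

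The AOS2 block had medians of -0.40 and -0.02 with IsoClark in Cy3 in replicates 1 and 3 and of -0.04 and -0.20 with IsoClark in Cy5 in replicates 1 and 2, with an r of 0.841 over 4 arrays. The block's mean over the 3 replicates, -0.15, had the same sign as the -0.26 of the AOS2 clone. VLXC clone Gm-r1070-948 differed, with an r of 0.05 over 5 arrays and a block mean of 0.09. LOXB1 clones Gm-r1021-2652 and Gm-r1021-3700 had r of 0.710 and 0.828 over 5 arrays each.

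**Figure D3:**
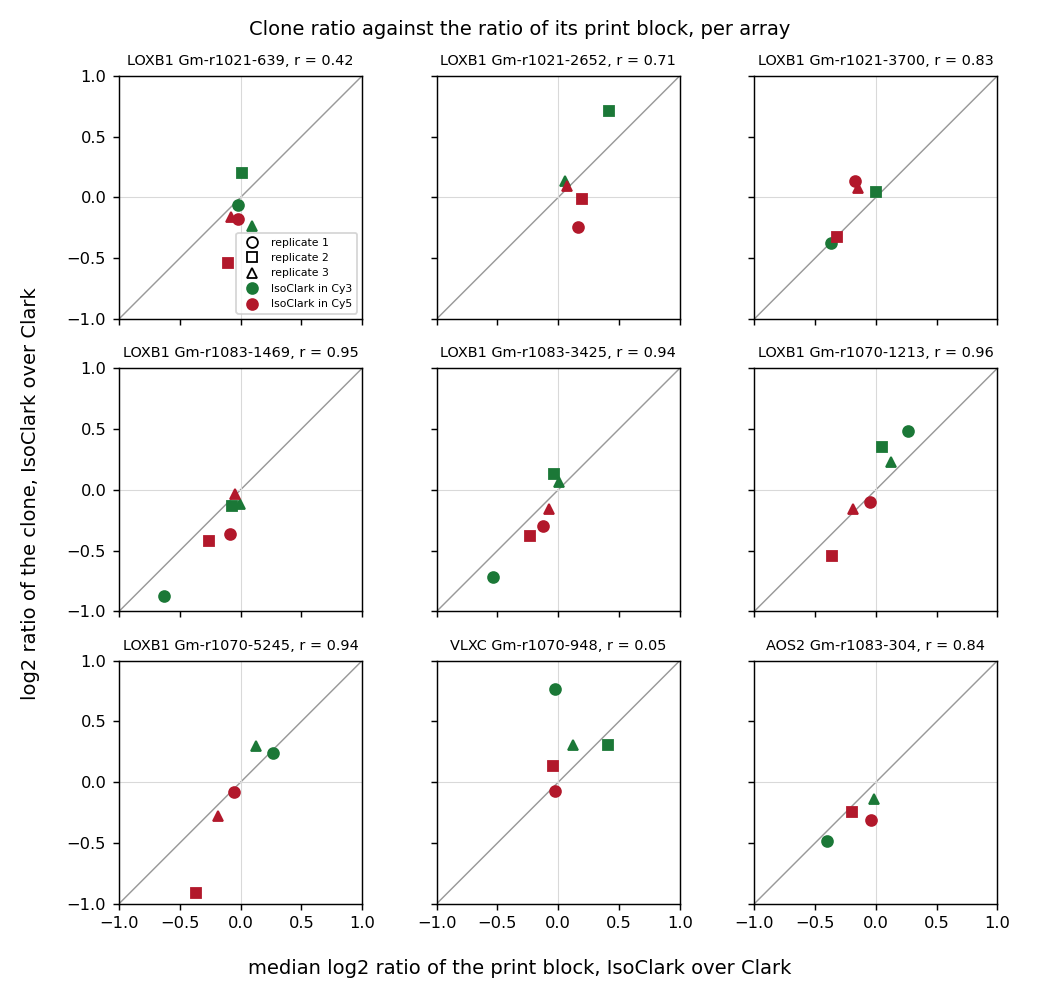
Ratio of each tested clone (vertical axis) against the median ratio of its print block (horizontal axis), both IsoClark over Clark on the log2 scale, with 1 point per usable array, colour for the dye of IsoClark, shape for the replicate and the diagonal marking equality. Points of LOXB1 clones Gm-r1083-1469, Gm-r1083-3425, Gm-r1070-1213 and Gm-r1070-5245 rise with the block (r of 0.952, 0.939, 0.960 and 0.943) but do not all lie on the diagonal, and those of VLXC clone Gm-r1070-948 show no such order (r of 0.05).

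When each print block was given its own loess curve, 7 of the 9 member ratios lay closer to 0 than with 1 curve per array. Those of LOXB1 clones Gm-r1021-3700 and Gm-r1070-1213 lay farther from it. The share of all clones that moved closer to 0 was not computed. The member ratios then ranged from -0.09 to 0.19, with 5 of 9 below 0. Their median was -0.05, against -0.16 with 1 curve per array. The AOS2 ratio was -0.05 ± 0.07 (n = 3, limma adjusted p = 0.976). LOXB1 clone Gm-r1083-1469 had -0.09 ± 0.09 (n = 3, limma adjusted p = 0.960), with replicate values of -0.19, -0.05 and -0.03. Gm-r1083-3425 had 0.01 ± 0.11 and Gm-r1070-5245 had -0.05 ± 0.21, while Gm-r1021-3700 had 0.17 ± 0.05 (n = 3 each).

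These 5 clones moved by 0.21 to 0.24, more than the 0.185 that 90% of all tested clones stayed under, where the median movement was 0.07. The LOXB1 mean over its 7 clones was -0.005 in this setting. LOXB1 clone Gm-r1021-639 kept its sign at -0.09 ± 0.02, and Gm-r1070-1213 had 0.07 ± 0.01. VLXC clone Gm-r1070-948 had 0.19 ± 0.18 (n = 3, limma adjusted p = 0.956), with replicate values of 0.39, 0.05 and 0.12. The SD over replicates had a median of 0.0860 in the 9 clones and of 0.180 in all tested clones, against 0.145 and 0.222 with 1 curve per array. Neither setting called any of the 9.

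**Figure D4:**
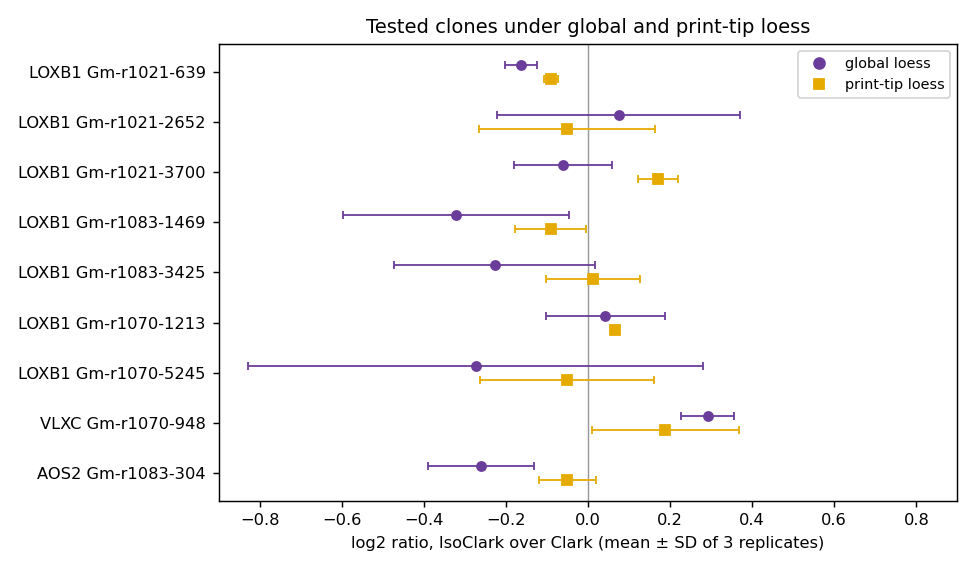
Mean ± SD over 3 replicates of the line ratio (IsoClark over Clark, log2, horizontal axis) of the 9 tested clones with 1 loess curve per array (circles) and 1 per print block (squares). The AOS2 clone lies at -0.26 with 1 curve per array and at -0.05 with 1 per block, and LOXB1 clone Gm-r1083-1469 at -0.32 and -0.09.

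Other genes of the oxylipin and jasmonate pathway, found by symbol and RefSeq synonym, numbered 10 with 38 clones. Of these, 26 clones were tested, and 0 passed the adjusted threshold in either direction in limma. The median ratio was 0.02, against 0.003 over all clones tested, with 15 clones above 0 and 11 below.

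Among the upstream lipoxygenases, LOX7 had the clone with the highest percentile as well as the most shifted one. Its clone Gm-r1021-477 had replicate values of 0.32, 0.53 and 0.33, a mean of 0.39 ± 0.12 (n = 3, limma unadjusted p = 0.0173, adjusted p = 0.796). It was the single one of the 26 tested clones of the list with an unadjusted p under 0.05, against 5.53% of all clones tested. LOX7 clone Gm-r1021-2641, at percentile 97.1, had -0.13 ± 0.23 (n = 3), so the LOX7 clones did not share a direction. The tested clones of VLXB, a vegetative lipoxygenase like VLXC, had -0.02 ± 0.15 and -0.02 ± 0.08 (n = 3 each). Clones of the seed lipoxygenases lay between -0.06 and 0.07 for LOX1.1, at 0.14 for LOX2 and between -0.03 and 0.16 for LOX3, and those of LOC547835 (synonym LOX1.4) between -0.09 and 0.18.

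AOS1, the second allene oxide synthase gene on the array, had 0.03 ± 0.25 (n = 3), and its interval of -0.31 to 0.37 held the AOS2 mean. COI1, the F-box protein of the jasmonate receptor, had -0.13 ± 0.41 in a clone at percentile 14.2 and 0.17 ± 0.13 in one at percentile 53.1 (n = 3 each). VSPA, a vegetative storage protein gene and a classical jasmonate target, was among the brightest spots, with median percentiles of 93.8 to 97.9, and its tested clones had -0.20 ± 0.21 and -0.04 ± 0.20 (n = 3 each). LOC547820 (synonym VSPB), the companion storage protein gene, ranged from -0.16 to 0.31 over 5 tested clones. No clone of these genes passed the adjusted threshold between IsoClark and Clark.

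Genes that supply fatty acids, such as desaturases (FAD) and ketoacyl-ACP synthases (KAS), numbered 9 with 17 clones, of which 11 clones of 8 genes were tested. In limma 0 passed the adjusted threshold, and 1 had an unadjusted p under 0.05, KASI clone Gm-r1021-1907 at 0.38 ± 0.29 (n = 3). Of all clones tested, 5.53% had an unadjusted p under 0.05. The second KASI clone, at percentile 2.54, had -0.10 ± 0.45. FAD3C, a desaturase that makes linolenic acid, had -0.20 ± 0.17 and FAD3A had -0.11 ± 0.06 (n = 3 each). The list had 7 clones above 0 and 4 below, with a median of 0.08 that was 0.01 without replicate 2 and -0.07 with the deposited ratios.

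**Figure D5:**
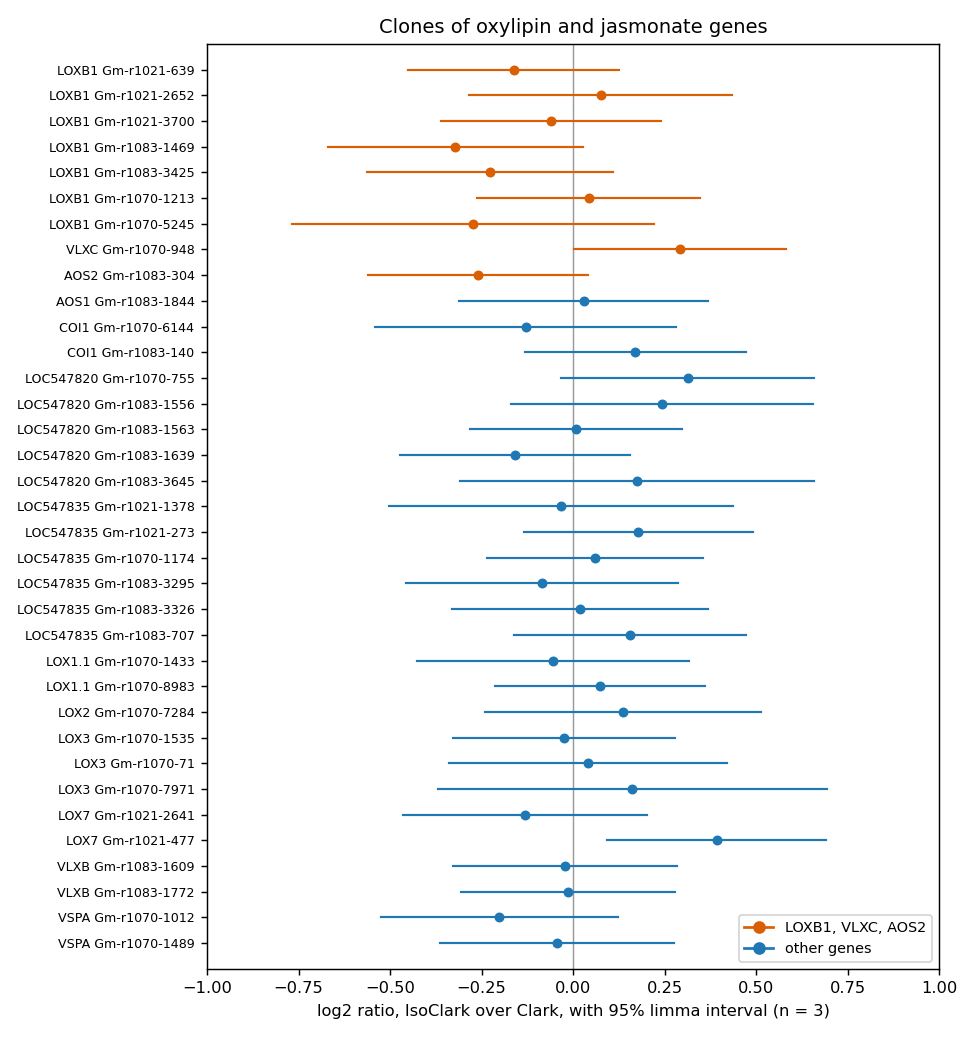
Line ratio (IsoClark over Clark, log2, horizontal axis) with its limma 95% interval (n = 3 replicates) for the 9 tested clones of LOXB1, VLXC and AOS2 above the 26 tested clones of the other oxylipin and jasmonate genes. The intervals of LOX7 clone Gm-r1021-477 and VLXC clone Gm-r1070-948 are the only ones that leave out 0, and no clone passed the adjusted threshold.

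Likeness of the per-array ratios was described for the best-measured clone of each gene against 168 named clones usable on all 6 arrays. LOXB1 clone Gm-r1021-639 was most like clones of SRA2 (r of 0.980), LOC547651 (0.920) and LOC778121 (0.883) over 6 arrays. For VLXC clone Gm-r1070-948 they were GND (0.958), BZIP109 (0.955) and LOC547512 (0.928) over 5 arrays. For the AOS2 clone they were ADR11 (0.996), GST24 (0.979) and SHOOT2 (0.955) over 4 arrays. The points share arrays, dyes and, in part, print blocks, and number only 4 to 6.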

How the data were processed

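The scanned slides were quantified by the authors with ImaGene (6.1.0 in the file headers), and the deposited files hold spot intensity for either dye on a linear scale, not normalized. The deposited ratio table holds log2 values for each array and clone row, and its normalization and exact scale are not given in the sources used here. By its values, the column of the IsoClark-Cy3 array of replicate 3 runs against its label, so the table served only as an alternative. For each labelling 90 ug of RNA was used.

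Rows of that table were tied to clones by clone number and 1 shift per clone set. In the run of clones around each member, the ratios of table and scanner had an r of 0.503 (LOXB1 clone Gm-r1083-1469) to 0.961, against at most 0.476 at the next best row. In all, 1091 of 1158 rows with 1 symbol were tied to a clone, and 522 of 526 genes matched Glycine_max_v4.0. The arrays refer to no genome build, so no coordinates are given.

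Background was corrected with normexp (offset 50) on signal mean and background median, followed by global loess per array in limma version 3.58.1 (R version 4.3.3) with weight 0 for blank and poor spots. Both arrays of a replicate were averaged where usable, and limma's moderated test (lmFit, eBayes) set the 3 values of a clone against 0, with p-values adjusted by Benjamini-Hochberg over all clones. Testing required that a clone exceed background by 2 background SD in Cy3 or Cy5 on 3 or more arrays and have a value in each replicate. All 11 member clones passed the background filter and 9 had all replicates. Of the replicate values, 44.1% rest on 1 array. The p-values measure the spread between 3 pools and their arrays, and the number of arrays limits the precision.

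The scripts were tested on simulated data. Every LOXB1, VLXC and AOS2 clone is named, as may be every measured gene of the pathway lists, and the 3 most alike genes for the best-measured clone of each gene. The members and lists were chosen with earlier results of these data known. Alternatives covered normalization, background, flags, filters, the deposited ratios, array direction, replicates left out, a replicate block and the day of quantification. Print block medians, the deposited ratios with no column turned and leaving out the IsoClark-Cy5 array of replicate 2 were added after seeing the data.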

Additional observations from a re-analysis of the deposited data

Results flagged for a closer look

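LOXB1 clones Gm-r1070-1213 and Gm-r1070-5245 moved in opposite directions in the 2 dye orientations, on every usable array. The mean ratio with IsoClark in Cy3 minus that with IsoClark in Cy5 was 0.62 for Gm-r1070-1213 (6 arrays) and 0.69 for Gm-r1070-5245 (5 arrays). For Gm-r1070-1213 the dye ratio had a limma adjusted p of 0.310, and for Gm-r1070-5245 the difference was not tested. Both clones lie in the print block whose median was 0.26, 0.05 and 0.13 with IsoClark in Cy3 and -0.05, -0.36 and -0.19 with IsoClark in Cy5.

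In 3 of 31 groups of 4 to 10 array values, 1 array lay far from the others, where chance flags about 1 in 20 groups. All 3 came from the IsoClark-Cy5 array of replicate 2. There LOXB1 clone Gm-r1070-5245 was at percentile 57.8 in IsoClark, LOXB1 clone Gm-r1083-1469 at percentile 41.0 in Clark, and AOS2 clone Gm-r1083-304 at percentile 43.6 in Clark.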

How the results depend on the processing

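Under every alternative run, 0 of the 9 tested LOXB1, VLXC and AOS2 clones passed the adjusted threshold. AOS2, LOXB1 clone Gm-r1083-1469 and VLXC clone Gm-r1070-948 kept their sign wherever they could be fitted (AOS2 and LOXB1 clone Gm-r1070-5245 have no replicate 2 value without that replicate's IsoClark-Cy5 array). Their sizes did not stay the same. With the IsoClark-Cy3 array of replicate 3 turned, VLXC clone Gm-r1070-948 had 0.086. With the IsoClark-Cy5 array of replicate 2 turned, AOS2 had -0.098 and Gm-r1083-1469 had -0.18. Over all clones, calls for the line numbered 0 except for 5 when the fit had a term for the quantification day. With 6 arrays, a dye term and a replicate block, 0 clones were called. The consensus correlation within replicates over the clones fitted was 0.0033, so this fit did not show the pairing of the arrays. It does not test whether the arrays of a replicate share RNA. Calls for the dye numbered 37 with median centring, 12 with the filter on both channels, and 0 to 9 with 1 replicate left out. With print-tip loess the sign turned for LOXB1 clones Gm-r1021-2652 (-0.051), Gm-r1021-3700 (0.17) and Gm-r1083-3425 (0.011), as it did for 22.7% of all tested clones. With the IsoClark-Cy5 array of replicate 2 turned, Gm-r1021-639 had 0.017, Gm-r1021-3700 0.049, Gm-r1070-5245 0.34, the LOXB1 mean 0.060 and the fatty acid list a median of -0.11; with that array left out, Gm-r1021-3700 had 0.0017. Gm-r1070-1213 had -0.016 with median centring, -0.016 with the signal median, -0.059 with the deposited ratios (1 column turned), -0.15 with none turned and -0.034 with the IsoClark-Cy3 array of replicate 3 turned. That turn gave the oxylipin list a median of 0.092. With the day as a term Gm-r1021-2652 had -0.0039. VLXC clone Gm-r1083-3357 had 0.22 without flags, and 0.23 and 0.19 with the deposited ratios, 1 or no column turned. The fatty acid median was 0.0065 without flags and -0.074 with the deposited ratios (1 column turned). With 1 replicate left out, ranges were -0.062 to 0.23 (Gm-r1021-2652), -0.032 to 0.11 (Gm-r1070-1213), -0.45 to 0.046 (Gm-r1070-5245), -0.19 to -0.10 (LOXB1 mean), -0.32 to -0.19 (AOS2), 0.26 to 0.33 (VLXC clone Gm-r1070-948), -0.32 to -0.088 (Gm-r1083-3425), -0.45 to -0.17 (Gm-r1083-1469), 0.011 to 0.088 for the oxylipin median and 0.011 to 0.061 for the fatty acid median. The causes were not tested.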
